A study of Mus musculus with 10 samples.

Results

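Interferon-stimulated genes are transcribed when a cell senses interferon, and 9 of them were examined in the bEnd.3 line of mouse brain endothelial cells: *Stat2*, *Irf9*, *Irf1*, *Irf7*, *Isg15*, *Ifit1*, *Ifit3*, *Ifi35* and *Bst2*. They were chosen by gene name, with earlier results of these data known, as 9 of the 27024 named rows of the expression table. Each name stood on 1 row. The cells were wild type and grew in high-glucose DMEM with fetal bovine serum. Of the 10 samples, 5 received 5 nM StcE in growth medium for 16 h (replicates 1, 2, 3, 5 and 6) and 5 received the same volume of saline (replicates 1, 2, 3, 4 and 5). StcE is a bacterial protease that cuts glycoproteins within mucin domains, and the comparison asks how endothelial cells transcribe these genes after StcE treatment. The control was saline and not an inactive form of the enzyme. Cutting and other effects of the added protein preparation therefore cannot be told apart. bEnd.3 is a single immortalised line, and nothing in the labels says that the samples came from separate cultures, so the p-values measure only the spread between these samples, which may be technical.

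As background, type I interferon binds a receptor at the cell surface whose kinases phosphorylate STAT factors, STAT2 among them. STAT2 acts with IRF9 in a complex that enters the nucleus and binds interferon-stimulated response elements, while interferon gamma acts through a different, palindromic site. The targets include further factors such as IRF1 and IRF7 and effectors that block viral replication or release, and in the brain endothelium the pathway is known to act at the blood-brain barrier.

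None of the 9 genes passed the limma test for a difference between StcE and saline, 8 of the 9 had lower mean levels with StcE (where 50.4% of all genes tested had a log2 fold change below 0) and *Stat2* had a higher one. At an adjusted p of 0.05 limma called 0 of 9, against 11.9% of the 11062 genes tested. At an unadjusted p under 0.05 there were 5 of 9, against 27.8% of all genes tested. By voom on recovered fragments 1 of 9 had an adjusted p under 0.05, against 14.3% of the 10445 genes tested there. In no gene did the groups separate without overlap, which 10.7% of tested genes did. All 9 had a mean of at least 1 FPKM (fragments scaled by exon length and by library depth), the minimum for testing. The median log2 fold change of the 9 genes was -0.11, where that of all genes tested was -0.00066. In bulk RNA, fewer expressing cells and less RNA per cell cannot be told apart.

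Letters to which the pathway's factors are known to bind lie before the start site of some of these genes. RefSeq promoters (GRCm38.p6, 250 bases before to 50 after each start) were matched for 9 of 9 genes, with 11 promoters in all. The letters GAAANNGAA, common to interferon-stimulated response elements, were searched on both strands and were found in the promoters of 5 of the 9 genes (*Isg15*, *Ifit1*, *Ifit3*, *Bst2* and *Stat2*), and for 9.76% of all 27025 genes with a promoter. The letters TTCNNNGAA, those of a STAT pair site, read the same on both strands as a pattern and were found for 3 of the 9 genes (*Irf1*, *Bst2* and *Ifi35*), and for 9.55% of all genes. In *Bst2* the match to TTCNNNGAA overlapped one to GAAANNGAA, and that of *Ifi35* lay after the start site. The windows are shown because they carry the matches in the genes that follow, each read 5′ to 3′ on the strand of its gene, with the matches to GAAANNGAA on either strand in capitals and, in *Irf1*, the match to TTCNNNGAA. A match describes letters and not binding.

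*Isg15*, chr4:156200861-156200911, minus strand: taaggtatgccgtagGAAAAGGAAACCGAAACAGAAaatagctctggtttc
*Ifit1*, chr19:34640765-34640828, plus strand: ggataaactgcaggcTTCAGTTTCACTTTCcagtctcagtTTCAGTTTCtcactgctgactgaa
*Ifit3*, chr19:34583359-34583450, plus strand: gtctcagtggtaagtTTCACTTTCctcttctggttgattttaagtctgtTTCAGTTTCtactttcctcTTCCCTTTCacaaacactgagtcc
*Bst2*, chr8:71537573-71537617, minus strand: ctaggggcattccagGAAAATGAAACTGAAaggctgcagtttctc
*Stat2*, chr10:128270262-128270300, plus strand: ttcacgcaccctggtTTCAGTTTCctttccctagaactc
*Irf1*, chr11:53769909-53769947, plus strand: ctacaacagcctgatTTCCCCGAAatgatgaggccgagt

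*Isg15*, *Ifit1* and *Ifit3* each had 3 matches to GAAANNGAA, *Bst2* had 2 and *Stat2* had 1. In *Isg15* the 3 matches overlap into 1 run, whereas in *Ifit3* they lie apart. Neither *Irf7* nor either promoter of *Irf9* held these letters in this window.

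The factors come first. *Stat2*, the STAT that joins the complex with IRF9, lies on chromosome 10 from 128270559 to 128292849 (GRCm38). Its level was 4.76, 5.88, 4.59, 4.89 and 4.68 FPKM in saline replicates 1 to 5, and 5.16, 5.57, 5.63, 5.30 and 5.66 FPKM in StcE replicates 1, 2, 3, 5 and 6. All 5 StcE samples lay above the saline median, and saline replicate 2 lay above all of them, so the groups overlapped through that sample. The means were 4.96 ± 0.53 and 5.46 ± 0.22 FPKM (SD, n = 5 each), a log2 fold change of 0.12 on the log2(FPKM + 1) scale (95% interval 0.0026 to 0.24, limma adjusted p = 0.172, exact permutation p = 0.0714). Without saline replicate 2 the log2 fold change was 0.17 and the limma adjusted p was 0.012, within a range of 0.012 to 0.358 over the alternatives.

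*Irf9*, the DNA-binding subunit of the complex that holds STAT2, lies on chromosome 14 (55603571 to 55610030), where its annotated first bases overlap the end of *Rnf31* on the same strand. It ranged from 3.63 to 5.05 FPKM with saline and from 3.81 to 4.33 FPKM with StcE. Every StcE sample lay inside the saline range. The log2 fold change was -0.11 (95% interval -0.26 to 0.048, limma adjusted p = 0.358), and ran from -0.17 to -0.069 with 1 sample left out.

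*Irf1*, a factor induced by both interferon types, lies on chromosome 11 (53770014 to 53778374). It stood at 3.64, 3.77, 3.27, 3.42 and 3.69 FPKM in the saline samples and at 3.35, 3.22, 3.08, 3.37 and 3.05 FPKM in the StcE samples, in the same order of replicates. The highest StcE samples, replicates 1 and 5, exceeded the lowest saline sample, and the other 3 lay below it. The log2 fold change was -0.11 (95% interval -0.20 to -0.024), with a limma adjusted p of 0.096 and an exact permutation p of 0.0317, where the smallest that 5 against 5 samples allow is 0.00794.

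*Irf7*, the factor that amplifies transcription of type I interferons, was the lowest of the 9 genes and lies on chromosome 7 (141262706 to 141266481). It measured 2.28, 2.38, 2.02, 1.71 and 2.31 FPKM with saline and 2.01, 1.89, 1.79, 1.35 and 1.74 FPKM with StcE. Saline replicate 4 was low enough to fall among the StcE samples, and StcE replicate 5 was the lowest of all 10. The log2 fold change was -0.19 (95% interval -0.36 to -0.017, limma adjusted p = 0.143).

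**Figure D1:**
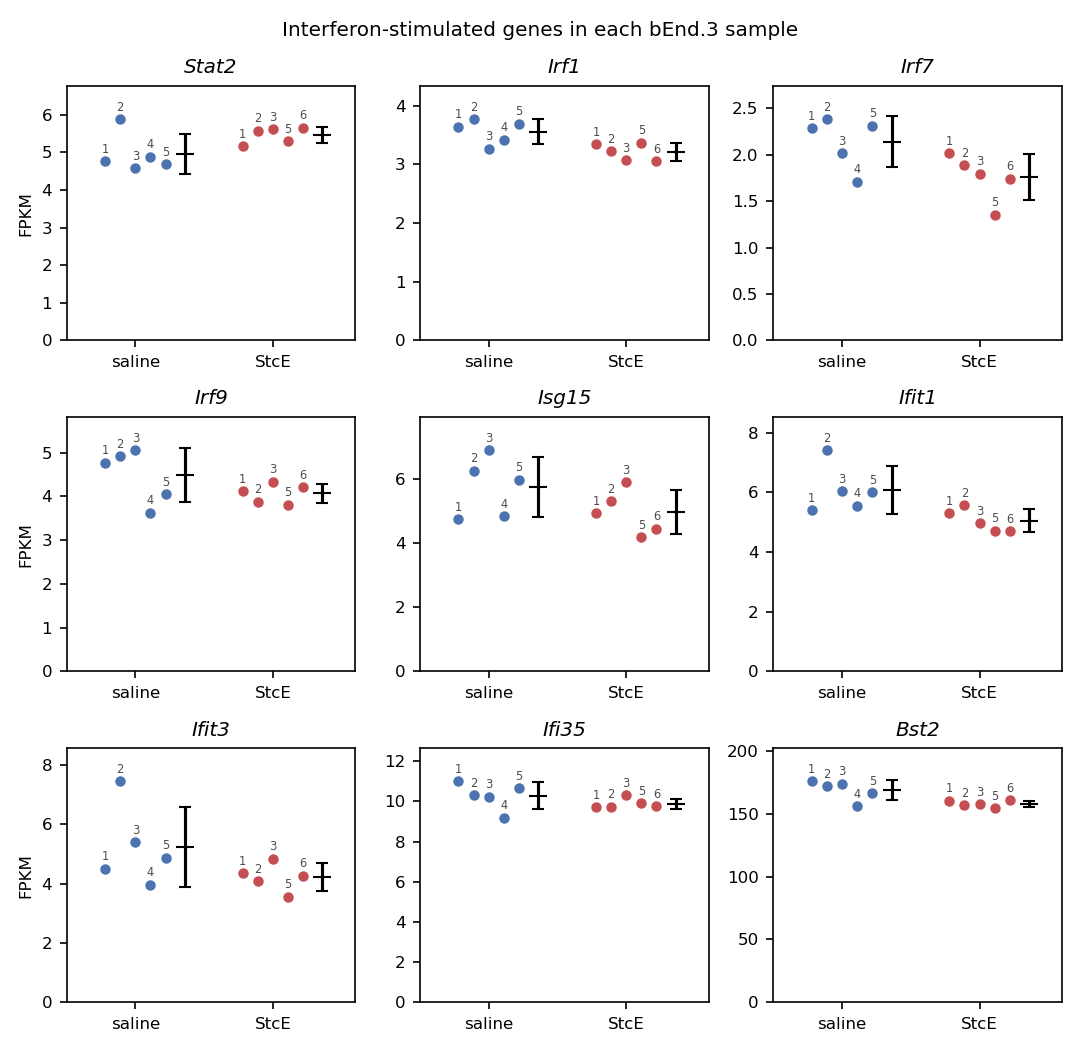
Level of each of the 9 genes in FPKM (vertical axes, from 0) in the 5 saline samples (blue) and the 5 StcE samples (red), with replicate numbers beside the points and the mean and SD in black. The groups overlap in each of the 9 genes, and *Stat2* is the 1 gene with the higher mean in StcE.

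Among the effectors, *Isg15* encodes a ubiquitin-like modifier and lies on chromosome 4 (156199424 to 156200818). Its level was 4.74, 6.26, 6.90, 4.84 and 5.99 FPKM in the saline samples and 4.95, 5.31, 5.91, 4.19 and 4.46 FPKM in the StcE samples. Both groups spread widely and 3 StcE samples lay inside the saline range. Its short exon length of 756 bases left 84 to 155 fragments per sample, and counting alone gives a coefficient of variation of 9.51% at the median, against 16.2% observed with saline and 13.8% with StcE. The log2 fold change was -0.17 (95% interval -0.39 to 0.044, limma adjusted p = 0.284), and ran from -0.23 to -0.11 with 1 sample left out.

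*Ifit1*, whose protein binds viral RNA that lacks the host cap methylation, lies on chromosome 19 (34640871 to 34650009). It measured 5.40, 7.41, 6.04, 5.55 and 6.01 FPKM with saline and 5.30, 5.57, 4.96, 4.71 and 4.70 FPKM with StcE. Of the StcE samples, 4 lay below every saline sample and replicate 2 lay just above the lowest pair. The means were 6.08 ± 0.79 and 5.05 ± 0.38 FPKM (SD, n = 5 each), a log2 fold change of -0.22 (95% interval -0.38 to -0.069) with a limma adjusted p of 0.063 and an exact permutation p of 0.0238. Its adjusted p was 0.035 by voom, 0.049 with array weights and 0.0497 without StcE replicate 2, and it reached 0.176 at most over the alternatives.

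*Ifit3*, a partner of *Ifit1* in the same antiviral complex, lies upstream of it on chromosome 19 (34583531 to 34588731). It measured 4.503, 7.46, 5.40, 3.97 and 4.88 FPKM with saline and 4.36, 4.08, 4.84, 3.57 and 4.27 FPKM with StcE. Saline replicate 2 stood far above the rest, and the other saline samples spread around the StcE samples. The log2 fold change was -0.24, and its 95% interval was the widest of the 9 genes (-0.50 to 0.028, limma adjusted p = 0.230). Without saline replicate 2 it was -0.12. Its transcript matches that of *Ifit3b* at 97.8% over 1700 bases, and how the counting treated fragments common to both is not given in the sources used here, so the level of *Ifit3* is uncertain.

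*Ifi35*, an interferon-induced leucine zipper protein, lies on chromosome 11 (101448407 to 101458698) and ranged from 9.19 to 11.004 FPKM with saline and from 9.72 to 10.3 FPKM with StcE. Every StcE sample lay within the saline range. Its log2 fold change was the nearest to 0 of the 9 genes, at -0.049 (95% interval -0.14 to 0.039, limma adjusted p = 0.470), and ran from -0.085 to -0.026 with 1 sample left out.

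*Bst2* encodes tetherin, which holds budding virus at the cell surface, and lies on chromosome 8 (71534255 to 71537456). It measured 175.7, 171.7, 173.8, 155.6 and 166.5 FPKM with saline and 160.2, 156.5, 157.4, 154.3 and 160.4 FPKM with StcE. Saline replicate 4 fell among the StcE samples, and the other 4 saline samples exceeded all of them. The means of 168.7 ± 8.1 and 157.7 ± 2.6 FPKM (SD, n = 5 each) gave a log2 fold change of -0.095 (95% interval -0.16 to -0.025, limma adjusted p = 0.078, exact permutation p = 0.0397). Without saline replicate 4 the limma adjusted p was 0.0093, and with array weights 0.034, within a range of 0.0093 to 0.183 over the alternatives.

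**Figure D2:**
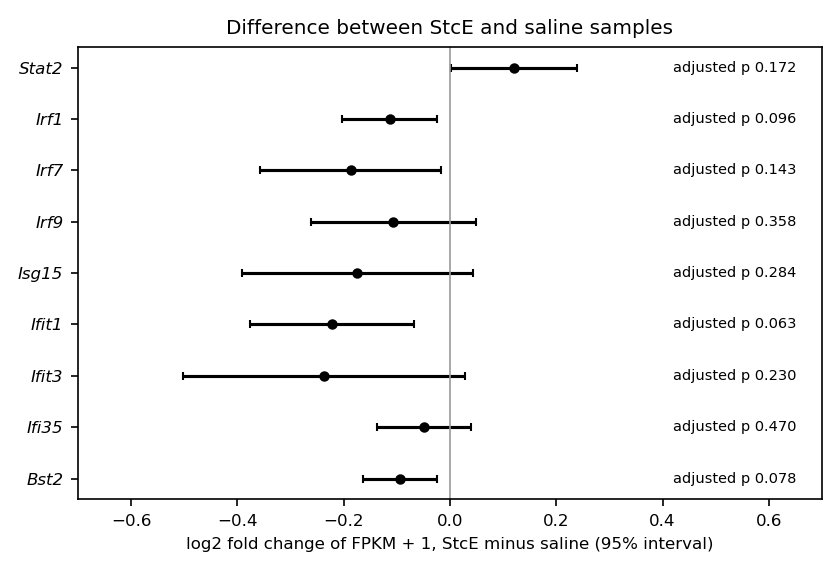
Log2 fold change of FPKM + 1, StcE minus saline (horizontal axis), for each of the 9 genes, with bars for the 95% interval of the limma fit and the p adjusted over all genes tested. The interval lies above 0 for *Stat2*, below 0 for *Irf1*, *Irf7*, *Ifit1* and *Bst2*, and includes 0 for the rest, and none of the adjusted p-values is under 0.05.

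The intervals bound the size of any difference. For the 8 genes with a lower mean the highest upper bound was that of *Irf9*, 1.03 times the saline level of FPKM + 1, and for *Stat2* it was 1.18 times. The lowest lower bound, that of *Ifit3*, was 0.706 times. Single samples decided calls. Leaving out saline replicate 2 called *Stat2*, saline replicate 4 called *Bst2* and StcE replicate 2 called *Ifit1*, 1 gene of 9 in each case. Over all genes those fits called 1073, 956 and 1255, in the same order. With every sample kept the count was 1320 of 11062 (11.9%).

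Levels per length differed widely among the 9 genes. With saline, *Bst2* stood far above *Ifi35*, and *Ifi35* above *Ifit1*, with no overlap of samples between neighbours. From *Ifit1* down through *Isg15*, *Ifit3*, *Stat2* and *Irf9* to *Irf1* the ranges of neighbours overlapped, although *Irf9* exceeded *Irf1* in all 5 samples, and *Irf7* lay below *Irf1* in all 5 samples with no overlap. With StcE, *Stat2* took the place after *Ifi35*, with means of 5.46 FPKM for *Stat2* and 5.05 FPKM for *Ifit1* and overlapping ranges.

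Over all 10 samples many of the 9 genes varied together within a group. After each group mean was removed, all 9 genes lay above the mean in saline replicate 2 and all 9 below it in saline replicate 4. Over the 10 samples, 33 of 36 gene pairs correlated above 0 and 15 above 0.5, with a median Pearson r of 0.34, where 50.1% of the pairs of all genes tested were above 0 and 10.8% above 0.5. Over the 8 samples without those 2, 21 of the 36 pairs were above 0, 4 above 0.5 and 4 below -0.5, with a median of 0.073, where 50.2% of all pairs were above 0 and 14.9% above 0.5. They were left out for lying farthest from the median in the mean deviation of these same genes, a choice that by itself lowers r. *Bst2* and *Irf9* were the closest pair (r = 0.91, Spearman rho = 0.92, n = 10) and had an r of 0.82 without those samples. *Ifit1* and *Ifit3* had an r of 0.80 (rho = 0.66, n = 10) and 0.37 without them. Of the 15 pairs above 0.5, 4 stayed above it without those samples and the other 11 then had an r from -0.24 to 0.48. These correlations are descriptions over samples that differ in depth, and are given with no test.

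**Figure D3:**
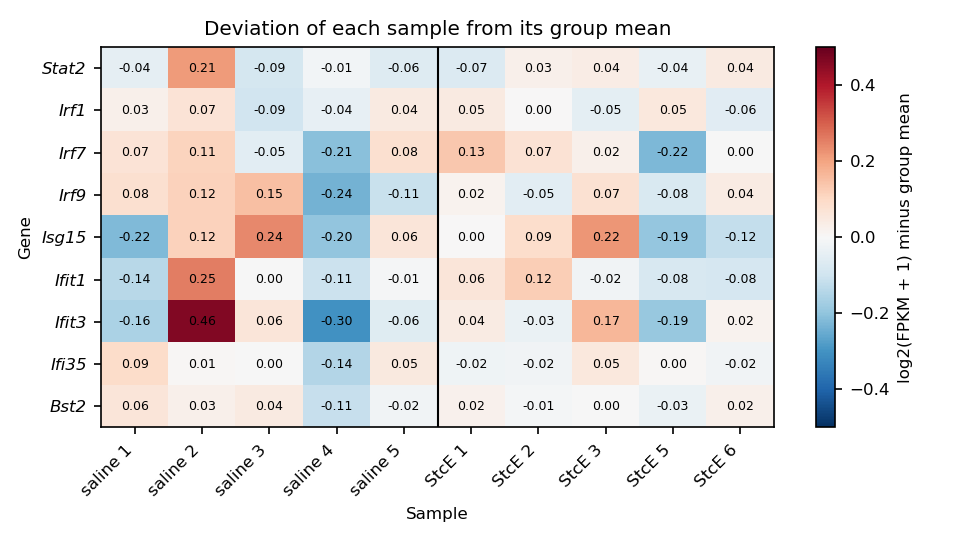
Deviation of log2(FPKM + 1) from the group mean for the 9 genes (rows) in the 10 samples (columns, saline left of the line), with the value in each cell. Values are above 0 throughout in saline replicate 2 and below 0 throughout in saline replicate 4, with the widest swing in *Ifit3*. Some are near 0 and almost white, such as *Ifi35* in saline replicate 2 (0.0073) and *Stat2* in saline replicate 4 (-0.014).

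The genes outside the 9 whose deviations followed their mean standardised deviation most closely, among 11053 compared over 10 samples, were *Ccdc163* (r = 0.96), *B2m* (0.94), *Rps27l* (0.93), *Car13* (0.93) and *Cyp51* (0.92). Without saline replicates 2 and 4 these were between 0.38 (*Car13*) and 0.84 (*Ccdc163*). *B2m*, the light chain of MHC class I, is itself an interferon target. *Cyp51*, an enzyme of cholesterol synthesis, rose from 6.44 ± 0.51 to 21.1 ± 0.45 FPKM with StcE (SD, n = 5 each), and the shared pattern concerns only the spread inside each group. Of 86 tested genes in the interferon pathway lists outside the 9, 28 (32.6%) had an r above 0.5 with the same mean, against 10.9% of all other genes tested, and without saline replicates 2 and 4 these were 16 (18.6%) and 8.66%. An r below -0.5 was found in 5 of the 86 (5.81%, against 13.1% of all other genes tested), and without those samples in 10 (11.6%, against 10.6%).

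The other genes of the pathway were read from lists by role. The lists were chosen with earlier results of these data known, so their shares are descriptions. Of 140 genes listed, 131 had a row and 86 reached the 1 FPKM minimum, and limma called 15 lower (17.4% of those tested, against 6.41% of all genes tested) and 2 higher with StcE (where 5.52% of all genes were called higher). The median log2 fold change of the 86 was -0.10. The 17 calls became 11 when saline replicate 1 or 2 or StcE replicate 1, 3 or 5 was left out. The calls over all genes fell in those fits too, from 1320 to 838, 1073, 924, 793 and 945, in the same order. The lists had 9 calls with no filter on low values (where 2.96% of all 27024 genes were called) and 26 of 80 by voom (14.3% of all genes). With no filter *Cmpk2*, *Ddx58*, *Dtx3l*, *Irf2*, *Irgm1*, *Pias1*, *B2m* and *H2-K1* lost their calls. *Gbp3*, *Gbp7*, *Ifngr1*, *Jak1*, *Shisa5*, *Dtx3l*, *Rnf135*, *Tlr4* and *H2-K1*, 9 of the 17, passed whichever sample was left out.

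Of 11 listed ligands 8 had no row. Of the 27024 named rows 0 were at 0 in every sample, so genes without any fragment may have been left out. Whether that holds for these 8 ligands is not given. *Ifnb1*, the gene of interferon beta, had 0 to 2 fragments in any sample, under the floor of 3 fragments. *Ifne*, the only 1 of the 3 with a row to reach the minimum, had means of 1.58 ± 0.52 FPKM with saline and 1.33 ± 0.39 FPKM with StcE (SD, n = 5 each, limma adjusted p = 0.586).

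Of 8 tested genes for receptors and their kinases, 2 fell with StcE and 0 rose, where 6.41% of all genes tested fell and 5.52% rose. *Ifngr1*, a chain of the interferon gamma receptor, measured 17.4, 19.1, 17.7, 17.6 and 17.4 FPKM with saline and 14.9, 16.1, 13.8, 15.5 and 15.3 FPKM with StcE. No StcE sample reached the lowest saline sample, and the gene fell by 0.22 on the log2 scale (SE 0.039, limma adjusted p = 0.0040). *Jak1*, a kinase used by both interferon receptors, was the most highly expressed of this list and fell by 0.13 (SE 0.024, limma adjusted p = 0.0042) from 33.5 ± 0.36 to 30.5 ± 0.90 FPKM (SD, n = 5 each), again without overlap. The 2 chains of the type I receptor, *Ifnar1* and *Ifnar2*, had log2 fold changes of -0.072 and -0.12 with overlapping groups (limma adjusted p = 0.132 and 0.142). The level of *Ifnar2* is uncertain, since *Gm21970* overlaps it on the same strand and matches it at 100% over 315 bases.

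Of 5 tested factors outside the 9 genes, 1 fell and 0 rose (against 6.41% and 5.52% of all genes tested). *Irf2*, known as a repressor at IRF1 sites, fell by 0.12 without overlap (limma adjusted p = 0.036), a call lost in 8 of the 10 fits with 1 sample left out, all but those without saline replicate 3 or StcE replicate 2. *Irf3*, the most abundant, stood at 12.8 ± 0.55 and 13.2 ± 0.93 FPKM (SD, n = 5 each).

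Of 13 tested sensors and adaptors 1 rose and 2 fell (against 5.52% and 6.41% of all genes tested), with a median log2 fold change of -0.0001. *Tlr4*, the receptor for bacterial lipopolysaccharide, rose from 19.2 ± 0.72 to 21.2 ± 0.71 FPKM (SD, n = 5 each), a log2 fold change of 0.14 (SE 0.031, limma adjusted p = 0.015), and all 5 StcE samples exceeded all saline samples. *Ddx58*, which encodes the RNA sensor RIG-I, fell by 0.16 (limma adjusted p = 0.029), a call lost without saline replicate 1, 2 or 4 or StcE replicate 1 or 3. *Rnf135*, a ubiquitin ligase that acts on RIG-I, also fell by 0.16 (limma adjusted p = 0.017). *Trim25*, another such ligase and the most abundant of this list and of the ISG15 conjugation list, had means of 34.0 ± 0.34 and 34.9 ± 1.1 FPKM (SD, n = 5 each, limma adjusted p = 0.410).

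Of 9 tested negative regulators, 2 fell and 0 rose (against 6.41% and 5.52% of all genes tested). *Irf2bp1*, a corepressor that binds IRF2, fell by 0.12 (limma adjusted p = 0.022), a call lost without saline replicate 1 or 4 or StcE replicate 3. *Pias1*, an inhibitor of cytokine signalling, fell by 0.13 (limma adjusted p = 0.045), a call kept only without StcE replicate 2. *Ptpn1*, the most abundant, had a log2 fold change of -0.079 (limma adjusted p = 0.230). *Usp18*, which removes ISG15 and dampens the receptor, ranged from 0.872 to 2.09 FPKM with saline and from 0.911 to 1.43 FPKM with StcE, and the sign of its difference turned without saline replicate 2. Of the 5 tested genes of ISG15 conjugation limma called 0 (against 11.9% of all genes tested), with 2 at an unadjusted p under 0.05 (against 27.8% of all) and 0 by voom (against 14.3% of all).

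Of 31 tested antiviral effectors, 4 fell with StcE (12.9%, against 6.41% of all genes tested) and 0 rose (against 5.52% of all). A log2 fold change below 0 was found in 27, against 50.4% of all genes tested, with a median of -0.13. By voom 13 of 30 were called, where 14.3% of all genes were. *Cmpk2*, a mitochondrial nucleotide kinase, measured 2.45, 4.05, 2.92, 2.73 and 2.85 FPKM with saline and 1.92, 2.23, 2.38, 2.15 and 1.85 FPKM with StcE. The groups did not overlap, and the gene fell by 0.36 (SE 0.091, limma adjusted p = 0.029), a call lost without saline replicate 3 or StcE replicate 1, 5 or 6. *Dtx3l*, a ubiquitin ligase that pairs with PARP9, fell by 0.23 (limma adjusted p = 0.017). *Shisa5* fell by 0.16 (limma adjusted p = 0.0075). *Daxx*, a histone chaperone, fell by 0.11 (limma adjusted p = 0.030), a call lost in 7 of 10 fits with 1 sample left out and kept without saline replicate 4 or StcE replicate 1 or 2. *Ifitm3*, which blocks viral entry, was the most abundant at 578.5 ± 15 and 580.5 ± 38 FPKM (SD, n = 5 each), and the sign of its small difference turned in several alternatives.

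All 7 tested genes of the gamma-type list had a log2 fold change below 0 (against 50.4% of all genes tested), with a median of -0.21, and 3 were called lower (against 6.41% of all). *Gbp3*, a guanylate-binding protein, measured 3.20, 3.48, 3.04, 2.84 and 3.47 FPKM with saline and 2.21, 2.36, 2.63, 2.41 and 2.48 FPKM with StcE. The highest StcE sample stood under the lowest saline one, and *Gbp3* fell by 0.30 (SE 0.051, limma adjusted p = 0.0037). *Gbp7* fell by 0.28 (SE 0.056, limma adjusted p = 0.0086), also without overlap, although the pseudogene *Gm43802* lies within it and matches it at 100% over 637 bases. *Irgm1*, an immunity-related GTPase, fell by 0.21 (limma adjusted p = 0.043), a call kept only without saline replicate 4 or StcE replicate 2. *Gbp9*, the most abundant, had a log2 fold change of -0.039 (limma adjusted p = 0.617), which ran from -0.063 to -0.00051 with 1 sample left out. A further 13 listed genes were below the minimum.

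Of 9 tested genes of MHC class I presentation, 1 rose and 1 fell (against 5.52% and 6.41% of all genes tested). A log2 fold change below 0 was found in 7 of the 9, against 50.4% of all genes tested, with a median of -0.12. *H2-K1*, a classical heavy chain, measured 15.7, 15.4, 15.6, 14.4 and 13.2 FPKM with saline and 17.1, 16.7, 16.7, 16.8 and 17.8 FPKM with StcE. The lowest StcE sample exceeded the highest saline one, and *H2-K1* rose by 0.19 (SE 0.043, limma adjusted p = 0.019, and 0.056 with no filter on low values). *B2m*, whose product pairs with that chain, fell by 0.13 from 285.7 ± 18 to 260.3 ± 5.4 FPKM (SD, n = 5 each, limma adjusted p = 0.0499), and kept its call only without saline replicate 4 among the fits that leave out 1 sample.

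**Figure D4:**
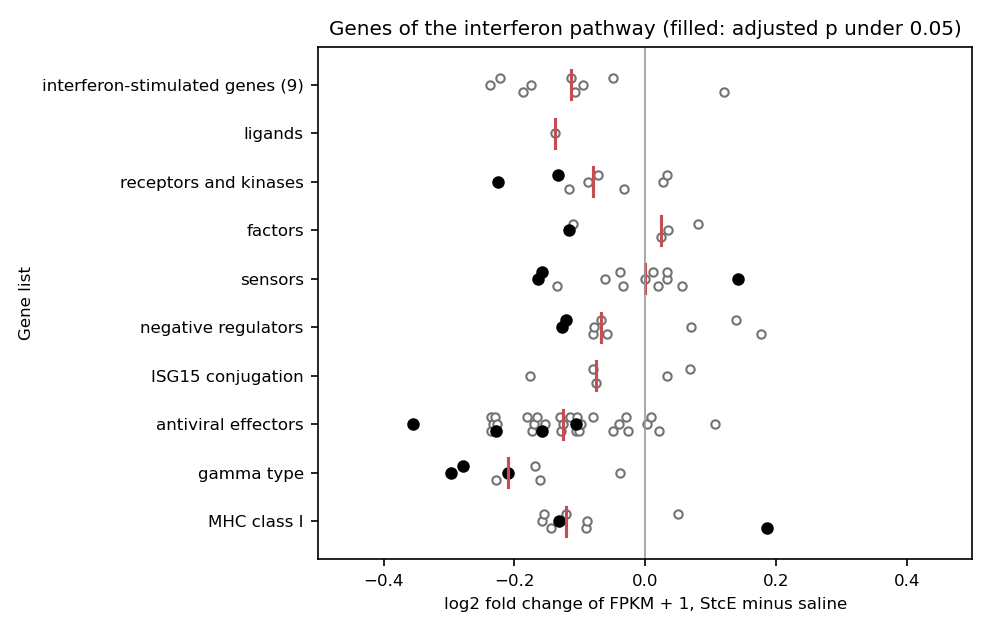
Log2 fold change of FPKM + 1, StcE minus saline (horizontal axis), for the tested genes of the 9 interferon-stimulated genes and of each pathway list (vertical axis), with filled points for genes at an adjusted p under 0.05, open points for the rest and a red bar at each list's median. The 7 gamma-type genes all lie below 0, and *Tlr4* and *H2-K1* are the 2 filled points above 0.

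The endothelial label was checked against markers. All 11 endothelial markers passed the minimum, led by *Cdh5* at a mean of 485.9 FPKM, with *Cldn5* at 312.5 and *Pecam1* at 290.5 FPKM. With StcE 5 of the 11 were lower by limma (45.5%, against 6.41% of all genes tested) and 0 higher (against 5.52% of all). The 5, named after their values were seen, were *Pecam1*, *Tek*, *Tie1*, *Esam* and *Erg*, with log2 fold changes from -0.24 to -0.070. The part of such a shift in the levels of the interferon-stimulated genes was not tested. Of other cell types, *Ptprc* for leukocytes reached 0.00198 FPKM at most in a sample, and astrocyte and epithelial lists had no gene at 1 FPKM. *Cd68* at 20.1 FPKM was the highest of the leukocyte list, *Acta2* at 3.14 FPKM that of the mural list and *Pdgfra* at 1.24 FPKM that of the fibroblast list, and limma called none of these 3 (adjusted p = 0.521, 0.845 and 0.438).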

How the data were processed

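The authors purified poly(A) RNA, made directional libraries and deposited FPKM values, 1 column per sample. The submitters' processing notes name HISAT2 2.0.5, featureCounts 1.5.0-p3, DESeq2 1.32.0 and the build mm10 (GRCm38). The strand setting and annotation release used for counting are not given in the sources used here, so genes with an antisense partner, such as *Irf7* beside *Phrf1*, are uncertain. Of 49898 rows, 22874 without a gene name were left out.

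From the FPKM, log2(FPKM + 1) was fitted across all 11062 genes with a mean of at least 1 FPKM by limma 3.58.1 in R 4.3.3 (lmFit, eBayes with trend, treatment as the only term), with Benjamini-Hochberg adjustment over all of them and a threshold of 0.05. The procedure was tested on simulated data. A fold change on this scale understates that of low genes. Exact permutation tests were two-sided over all divisions of the 10 samples into 5 and 5. Whole fragments were recovered from FPKM and GENCODE vM21 exon lengths: 96.6% of values above 0 were whole within 0.05, and totals ran from 21864604 to 33147402 fragments per sample, where 3 fragments on 1 kb equal 0.0857 to 0.131 FPKM. Intervals and floors cover counting or sample spread only. No pair of replicates agreed within counting noise. Copies were sought with BLAST 2.17.0 (95% identity over 150 bases).

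The 9 genes and the lists were chosen with earlier results of these data known. Named from the lists were the most abundant tested gene and up to 4 called genes in each direction by smallest p, with *Ifnar1*, *Ifnar2*, *Usp18* and *Ifnb1* whatever their values (1 further gene of this rule is not reported here), and the 5 genes most like the 9 in their deviations. Alternatives changed the pseudocount, the filter, the eBayes settings, weights, scaling, the model (voom), a replicate block and each sample in turn.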

Additional observations from a re-analysis of the deposited data

Results flagged for a closer look

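In 5 of the 82 groups of 5 samples examined for 41 named genes, 1 sample lay far from the other 4, where chance gives about 1 group in 20. *Stat2* was 5.88 FPKM in saline replicate 2, against 4.59 to 4.89 FPKM in the other saline samples. *Ifngr1* was also highest in saline replicate 2, at 19.1 FPKM against 17.4 to 17.7 FPKM. *Gbp9* was lowest in StcE replicate 2, at 12.9 FPKM against 14.6 to 15.02 FPKM. *Ifne* was highest in StcE replicate 1, at 1.98 FPKM against 0.955 to 1.25 FPKM, and *Shisa5* was lowest in StcE replicate 6, at 46.7 FPKM against 48.2 to 48.8 FPKM.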

How the results depend on the processing

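Over 21 alternatives for each of the 9 interferon-stimulated genes, 182 of 189 refits kept the direction and the side of the threshold, 7 passed it and 0 reversed. The count of genes called among the 9, 0 in the limma fit, was 2 with array weights (*Ifit1* -0.22, *Bst2* -0.11), 1 by voom (*Ifit1* -0.26) and 0 to 1 with 1 sample left out. Over all genes the limma fit called 1320 of 11062 (11.9%). Array weights called 1476, voom 1494 of 10445 (14.3%) and the fits with 1 sample left out 793 to 1255. With 1 sample left out the log2 fold change ran from 0.099 to 0.17 for *Stat2*, -0.17 to -0.069 for *Irf9*, -0.14 to -0.097 for *Irf1*, -0.24 to -0.13 for *Irf7*, -0.23 to -0.11 for *Isg15*, -0.26 to -0.16 for *Ifit1*, -0.31 to -0.12 for *Ifit3*, -0.085 to -0.026 for *Ifi35* and -0.12 to -0.080 for *Bst2*. With no filter on low values 801 genes were called in all (409 lower, 392 higher) and 9 in the pathway lists (8 lower, 1 higher), where more genes are tested. By voom the lists had 26 (25 lower, 1 higher), where 833 of all genes were called lower and 661 higher. With 1 sample left out the totals ran from 793 (without StcE replicate 3) to 1255 (409 to 667 lower, 384 to 588 higher), and the lists from 11 to 18 (9 to 16 lower). Scaling by total fragments gave 15 in the lists (12 lower, 3 higher) and 1295 over all genes (628 lower, 667 higher). The balance over all genes thus turned, from 709 lower and 611 higher in the limma fit.

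The groups share 4 replicate numbers, but same-numbered samples did not deviate together (r from -0.097 to 0.054). The labels do not say whether equal numbers stand for a shared day or batch, and these correlations cannot settle that. With the replicate block on those 8 samples 349 genes were called (162 lower, 187 higher), 0 of the 9 and 4 in the lists (4 lower, 0 higher). Of the 9 list calls kept whichever sample was left out, the block ended those of *Dtx3l*, *Gbp7*, *H2-K1*, *Jak1*, *Rnf135*, *Shisa5* and *Tlr4* (limma adjusted p from 0.059 to 0.133). Those samples fitted unblocked, an alternative chosen after seeing the data, gave 885 (452 lower, 433 higher), 1 of the 9 (*Bst2* -0.13) and 13 in the lists (12 lower, 1 higher). Of the same 9 calls *H2-K1* and *Rnf135* were lost there (limma adjusted p = 0.081 and 0.069).

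The uncalled *Ifitm3* turned to -0.0096 with array weights and -0.0055 on the 8 samples with or without the block, *Rps27l* to 0.0035 with scaling by total fragments. With 1 sample left out *Ifitm3* ran from -0.033 to 0.024, *Rps27l* from -0.031 to 0.027 and *Usp18* from -0.15 to 0.035. Alternatives for the pathway lists beyond the pseudocount and the 0.1 FPKM filter, and all for the other named genes, were chosen after seeing the data. The cause of these shifts was not tested. Among the 9 genes *Isg15* had the fewest fragments (84 at the lowest).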
